A study of Mus musculus with 8 samples.

Results

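Interferon-stimulated genes are the genes that cells switch on when interferon reaches them, and 46 of them were followed here in mouse embryonic fibroblasts that carry a STAT5 mutant. A listed gene was measured where the array's annotation gave a probe set its symbol and no other. This held for 77 of 45037 probe sets and for 43 of the 46 genes, out of 18193 genes named in the same way. Gbp4, Ifi44 and Isg15 had no such probe set and are not analysed here. Where a gene had several probe sets, as 20 of the 43 did, the one with the highest mean over all arrays stood for it.

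RNA was profiled on 8 Affymetrix arrays in 4 groups of 2, which the series calls biological duplicates. All groups were fibroblasts of the C57BL/6 strain, all lacked Stat5, and a mutant form had been put back into all of them with a retrovirus. EA cells received a STAT5 whose binding domain was changed from EE to AA, and YF cells received one changed at its phosphorylation site (Y694F). Each was sampled unstimulated (groups EA and YF) and after 120 minutes of growth hormone (groups EA_GH and YF_GH). No group with unmutated STAT5 was analysed here, so a difference between EA and YF does not say which of them departs from the normal state. The labels do not say how many infected populations were made, so the mutant and the cell population that carries it cannot be told apart. These are bulk RNA values, in which fewer cells of a type and less RNA per cell cannot be told apart either.

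Interferons bind receptors whose JAK kinases phosphorylate STAT proteins. With IRF9, these form a complex that binds the interferon-stimulated response element (ISRE) in promoters, and STAT dimers bind the gamma-activated site (GAS). STAT5 dimers recognise sites of this GAS kind. The genes switched on in this way sense foreign nucleic acid, block viral RNA and its translation, hold back virus particles at membranes, and load peptides for display to T cells, and some of them, such as Usp18, dampen the signal again. Fibroblasts keep many of these genes on at a low tonic level without infection.

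Every level below is a log2 expression value of a probe set, as deposited. Most probe sets crowd at the bottom of the scale: 55.0% had a mean below 4 over the 8 arrays, called the low group here. A difference with a side in it is uncertain in size. Of the 43 members 12 had their mean there, as did 7414 of the 18193 genes, and the shares of all genes given below include these. The arrays' medians ranged from 2.85 to 2.94 and duplicates correlated at 0.996 to 0.998 across probe sets. EA and YF arrays parted on the first principal component (69.9% of the variance). YF with hormone replicate 1 stood apart on the second, at -55.8 against -14.3 to 32.6 for the other arrays, so counts are also given without it. The p-values set each difference against a spread between duplicates that is pooled over all 4 groups. A call can therefore be lost without an array from outside the compared groups, although the difference itself stays the same.

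In EA cells a large share of the interferon-stimulated genes was higher than in YF cells, and no member was called lower. Averaged over unstimulated and stimulated cells, 23 of 43 members passed the test as higher in EA (adjusted p below 0.05, limma with Benjamini-Hochberg adjustment over all 45037 probe sets), where 12.3% of all 18193 genes did. As lower in EA, 0 of 43 passed, where 10.5% of all genes did. Usp18, an ISG15-removing protease, and Ifit1, which binds foreign RNA ends, had the greatest average differences, at 3.62 (SE of 0.29, adjusted p = 0.0014) and 3.17 (SE of 0.28, adjusted p = 0.0019). By position of the arrays alone, 22 of 43 members had all 4 EA arrays above all 4 YF arrays, against 13.8% of all genes. The median difference over the members was 0.59, and over all genes it was 0.023.

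Each treatment gave the same sign of imbalance. Without hormone, 19 of 43 members passed as higher in EA, where 8.28% of all genes did, and 0 as lower, where 6.74% did. With hormone, 14 passed as higher, where 6.5% did, and 0 as lower, where 7.03% did. The 14 and the 19 share 12 genes, and 7 genes passed only without hormone and 2, Gbp2 and Oasl2, only with it. Whether any of these 9 genes differed more under 1 treatment is given by the test of the difference in hormone response, which none passed. The members' median was 0.63 without hormone and 0.33 with it, against -0.013 and 0.056 over all genes.

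The counts moved when single arrays were left out, though higher in EA remained the more frequent direction. The unstimulated comparison gave 12 members without EA replicate 1 or without YF replicate 1. The comparison under hormone gave 9 without EA_GH replicate 1 or without EA_GH replicate 2, and 10 without YF_GH replicate 1, the array that stands apart. The average gave 16 to 23 as each array was left out, and 20 without YF_GH replicate 1. Of the 23 average calls, 13 held under every alternative planned: Bst2, Dhx58, Dtx3l, Ifit1, Ifit2, Ifitm3, Irf5, Isg20, Oasl2, Parp14, Psmb9, Usp18 and Xaf1.

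**Figure D1:**
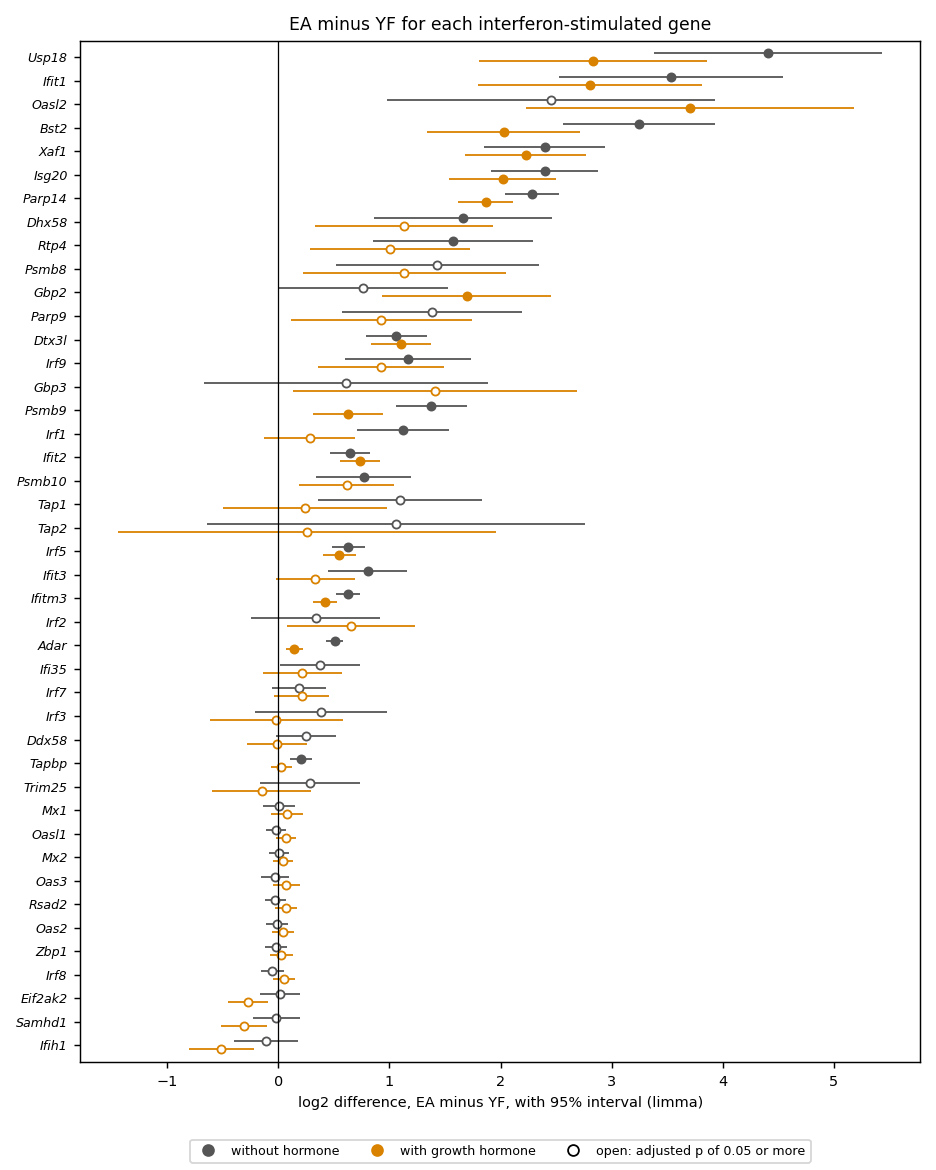
Difference between EA and YF (EA minus YF, log2, x axis) for each measured member (y axis), without and with growth hormone, with limma 95% intervals and filled points where the adjusted p is below 0.05. The points of Usp18, Ifit1 and Bst2 are the 3 filled points farthest to the right without hormone, and no filled point lies below 0.

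Wide differences were counted in the same way, over both treatments. A log2 difference above 1 in favour of EA was found for 16 of 43 members (37.2%), against 730 of 18193 genes (4.01%). Among the 16, Usp18, Oasl2, Dhx58, Psmb8 and Psmb9 had their YF side in the low group, so their size is uncertain. Gbp3, at 1.01 (adjusted p = 0.15 with limma), is also among them and did not pass. A difference below -1 was found for 0 members, against 776 genes (4.27%). These shares describe the list and carry no test. The list was put together with earlier results from these arrays in view.

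**Figure D2:**
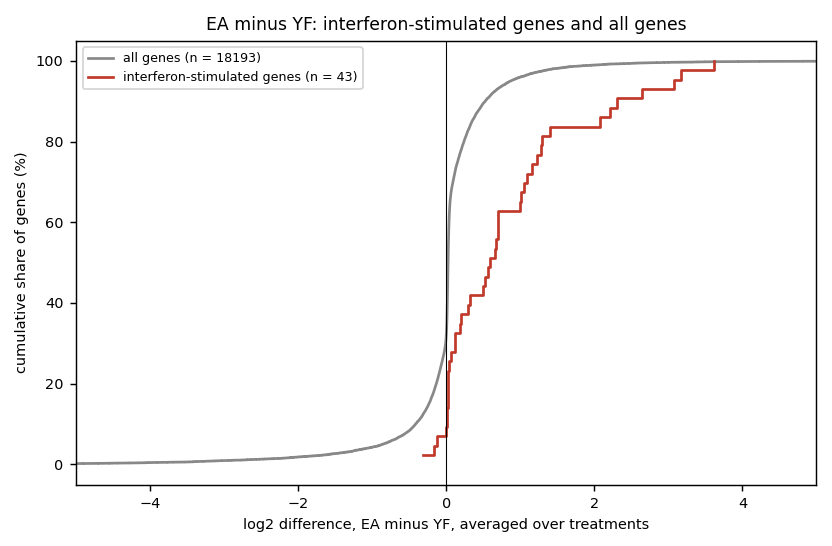
Cumulative share of genes (y axis) by average EA minus YF difference (log2, x axis) for the 43 members and for all 18193 genes. The members' curve lies to the right, with a median of 0.59 against 0.023, and 50 genes beyond the plotted range are left out of view.

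Promoter sequences from RefSeq (GRCm38.p6, 250 bases before to 50 after the start) were on hand for 35 of the 46 listed genes. They were searched on both strands for the ISRE core (GAAA, any 2 bases, GAAA) and for the GAS core (TTC, any 3 bases, GAA). An ISRE match lay in 13 of 35 members (37.1%), against 1079 of 27025 genes (3.99%). A GAS match lay in 12 of 35 (34.3%), against 2582 (9.55%). The stretches below show the matches in capitals, with 15 bases on each side, reading 5′ to 3′ in the direction of the gene. They were picked, with the values known, to show members higher in EA, a GAS-bearing set, and genes with an ISRE that stayed in the low group. An ISRE on the opposite strand reads here as TTTC, any 2 bases, TTTC.

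Ifit1 at chr19:34640770-34640828 (+ strand) and Ifit3 at chr19:34583358-34583431 (+ strand) each hold a pair of ISRE matches, and both genes were higher in EA. In Bst2, at chr8:71537572-71537623 (- strand), a GAS match and ISRE matches overlap, so the capitals run together. Gbp2, at chr3:142620589-142620628 (+ strand), has a single ISRE.
Ifit1: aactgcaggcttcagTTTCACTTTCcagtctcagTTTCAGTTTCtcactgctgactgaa
Ifit3: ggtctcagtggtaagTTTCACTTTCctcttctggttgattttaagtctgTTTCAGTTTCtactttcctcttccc
Bst2: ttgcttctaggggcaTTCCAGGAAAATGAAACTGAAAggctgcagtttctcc
Gbp2: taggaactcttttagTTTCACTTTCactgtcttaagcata

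Oas3 at chr5:120777710-120777749 (- strand) and Rsad2 at chr12:26456548-26456587 (- strand) carry the same core, yet their probe sets stayed in the low group on all 8 arrays.
Oas3: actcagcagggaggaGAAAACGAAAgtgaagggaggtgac
Rsad2: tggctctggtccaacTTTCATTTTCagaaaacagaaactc

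Irf1 at chr11:53769909-53769947 (+ strand), Isg20 at chr7:78913336-78913374 (+ strand) and Psmb8 at chr17:34198083-34198121 (+ strand) carry a GAS match, the kind of site that STAT5 dimers recognise.
Irf1: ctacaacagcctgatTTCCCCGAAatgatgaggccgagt
Isg20: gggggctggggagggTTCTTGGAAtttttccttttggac
Psmb8: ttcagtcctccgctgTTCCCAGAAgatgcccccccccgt

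Set against the difference between mutants, an ISRE lay in 5 of the 18 members with a window that were higher in EA and in 7 of the 15 other measured members with one. A GAS lay in 7 of the 18, with the printed Irf1, Isg20 and Psmb8 among them. It also lay in 5 of the 15, Eif2ak2, Ifi35, Irf2, Irf8 and Samhd1, which are not printed. A match is a run of letters, not an occupied site, and binding was not measured here.

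**Figure D3:**
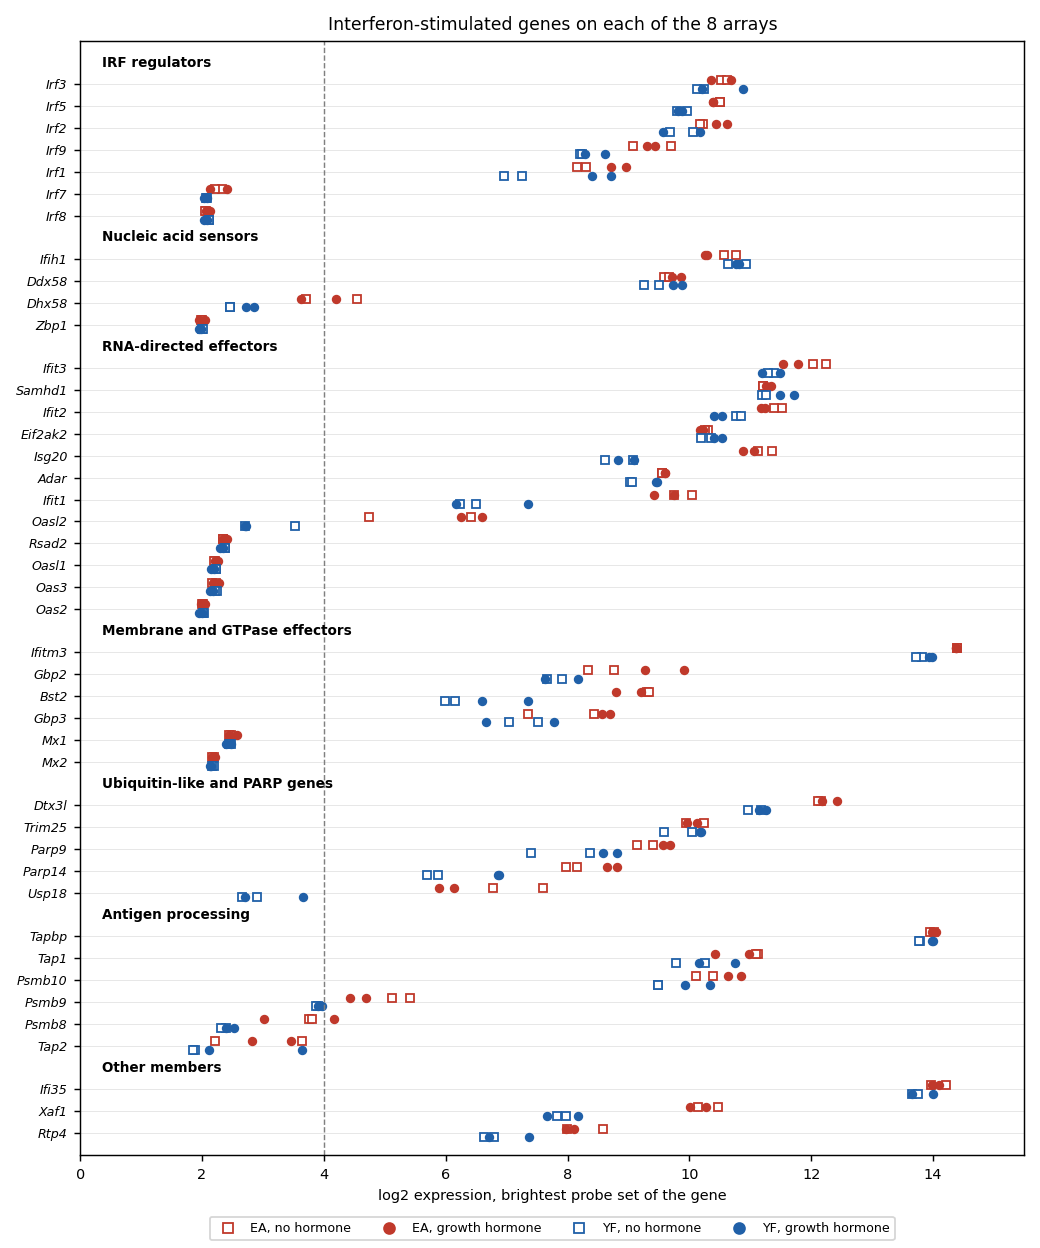
Level of each measured member (log2 expression of its brightest probe set, x axis) on each of the 8 arrays, grouped by role (y axis), with the dashed line at the bound of 4. EA points lie to the right of YF points for members such as Usp18, Ifit1 and Bst2, and 10 members that passed in no comparison sit left of the line.

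Among the interferon regulatory factors, 3 of 7 passed as higher in EA on average and 0 as lower, where 12.3% and 10.5% of all genes did. Irf9, a DNA-binding partner of STAT proteins at the ISRE, read 9.70 and 9.07 in unstimulated EA, 9.44 and 9.31 in EA with hormone, 8.20 and 8.23 in unstimulated YF, and 8.29 and 8.61 in YF with hormone. All EA arrays lay above all YF arrays, with a difference of 1.17 (SE of 0.22, adjusted p = 0.033) without hormone and 0.92 (SE of 0.22, adjusted p = 0.068) with it. Averaged, the difference was 1.05 (SE of 0.16, adjusted p = 0.011), and this call was lost without EA_GH replicate 1 (adjusted p = 0.0501). The unstimulated call was lost without EA replicate 1, either EA_GH array or either unstimulated YF array.

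Irf5, which relays Toll-like receptor signals, read 10.51 and 10.51 in unstimulated EA, 10.39 and 10.39 in EA with hormone, 9.96 and 9.80 in unstimulated YF, and 9.87 and 9.81 in YF with hormone. The duplicates lay close together and the mutants did not overlap, so a difference of 0.63 (SE of 0.060, adjusted p = 0.0042) unstimulated and 0.55 (SE of 0.060, adjusted p = 0.0065) under hormone passed. A dimmer Irf5 probe set gave larger differences, 2.60 (SE of 0.31, adjusted p = 0.0081) and 2.81 (SE of 0.31, adjusted p = 0.0068), so its direction was shared and its size was not, and the average was 1.65 on the mean of both. Irf1, an activator of antigen-processing genes, read 8.15 and 8.30 in unstimulated EA, 8.97 and 8.71 in EA with hormone, 6.95 and 7.26 in unstimulated YF, and 8.71 and 8.41 in YF with hormone. Unstimulated EA exceeded unstimulated YF by 1.12 (SE of 0.16, adjusted p = 0.015), whereas the stimulated groups met at 8.71 and their difference was 0.28 (SE of 0.16, adjusted p = 0.32). The average Irf1 difference, 0.70 (SE of 0.12, adjusted p = 0.014), was lost without EA replicate 2 or EA_GH replicate 1, and the unstimulated one without either EA array or YF replicate 1.

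The other regulators did not pass. Irf2, which can repress ISRE-bearing genes, gave an average difference of 0.50 (SE of 0.16, adjusted p = 0.12). Irf3, which is activated by viral sensors, gave 0.18 (SE of 0.17, adjusted p = 0.65). A dimmer Irf3 probe set, its EA side in the low group, gave -1.37 (SE of 0.48, adjusted p = 0.18) without hormone. With hormone that probe set had means of 4.33 in EA_GH and 3.80 in YF_GH, so its sign was not the same under both treatments. Irf7 and Irf8 stayed in the low group on every array.

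Of the cytoplasmic sensors of viral nucleic acid, only Dhx58 passed. Dhx58 encodes LGP2, a helicase that modulates the other RNA sensors, and read 4.54 and 3.71 in unstimulated EA, 4.21 and 3.63 in EA with hormone, 2.46 and 2.47 in unstimulated YF, and 2.85 and 2.73 in YF with hormone. EA arrays lay near the bound of the low group and all YF arrays below it, with differences of 1.66 (SE of 0.32, adjusted p = 0.033) and 1.13 (SE of 0.32, adjusted p = 0.10), whose size is uncertain for that reason. The unstimulated call was lost without any 1 array except EA replicate 2, and the average of 1.40 (SE of 0.22, adjusted p = 0.013) was not lost, although it was 0.48 on the mean of its probe sets. The sensors RIG-I (Ddx58) and MDA5 (Ifih1) were bright in all groups, and their average differences were 0.12 (SE of 0.076, adjusted p = 0.49) and -0.31 (SE of 0.081, adjusted p = 0.061). A further bright Ddx58 probe set had the other sign, at -0.27 (SE of 0.093, adjusted p = 0.14). Ifih1 was the member with the most negative value under hormone, -0.51 (SE of 0.11, adjusted p = 0.0547), and it passed as lower in EA in 7 of the alternative settings for that comparison, on the average in 4. Zbp1 stayed in the low group.

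The effectors that act on RNA held some of the widest gaps. Ifit1, which binds viral RNA ends and blocks translation, read 10.04 and 9.75 in unstimulated EA, 9.74 and 9.41 in EA with hormone, 6.49 and 6.23 in unstimulated YF, and 6.18 and 7.36 in YF with hormone. EA arrays were above 9 and YF arrays below 8, a difference of 3.54 (SE of 0.40, adjusted p = 0.0069) without hormone, 11.6-fold on the linear scale, and of 2.81 (SE of 0.40, adjusted p = 0.014) with it. The call under hormone was lost without either EA_GH array.

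Its neighbours in the family moved less. Ifit2, which restrains virus spread, read 11.52 and 11.39 in unstimulated EA, 11.18 and 11.24 in EA with hormone, 10.77 and 10.85 in unstimulated YF, and 10.41 and 10.54 in YF with hormone. The mutants did not overlap, and the differences were 0.65 (SE of 0.071, adjusted p = 0.0064) and 0.74 (SE of 0.071, adjusted p = 0.0046). Ifit3, which forms complexes with other IFIT proteins, read 12.04 and 12.25 in unstimulated EA, 11.79 and 11.55 in EA with hormone, 11.39 and 11.29 in unstimulated YF, and 11.48 and 11.19 in YF with hormone. Its EA arrays also lay above all YF arrays, but with 0.80 (SE of 0.14, adjusted p = 0.026) without hormone and 0.33 (SE of 0.14, adjusted p = 0.25) with it, so the second value missed the threshold. Ifit2 and Ifit3 are adjacent genes on chromosome 19. The average Ifit3 call was lost in 4 of the 8 fits that left out 1 array, those without EA replicate 2, EA_GH replicate 1 or either unstimulated YF array, and its unstimulated call without any 1 of the 4 unstimulated arrays.

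Isg20, an exonuclease that degrades single-stranded RNA, read 11.13 and 11.35 in unstimulated EA, 11.07 and 10.88 in EA with hormone, 8.61 and 9.08 in unstimulated YF, and 9.09 and 8.82 in YF with hormone. The EA and YF arrays were separated by a wide gap, 2.40 (SE of 0.19, adjusted p = 0.0026) without hormone and 2.02 (SE of 0.19, adjusted p = 0.0043) with it, and both calls held under every alternative. Oasl2, an OAS-like protein, read 6.41 and 4.74 in unstimulated EA, 6.59 and 6.25 in EA with hormone, 2.71 and 3.53 in unstimulated YF, and 2.71 and 2.72 in YF with hormone. The EA duplicates were far apart and all YF arrays lay below 4, and the difference passed with hormone, at 3.70 (SE of 0.58, adjusted p = 0.020), but not without it, at 2.46 (SE of 0.58, adjusted p = 0.063). The call with hormone was lost when any 1 of the 4 stimulated arrays was left out, while the average, 3.08 (SE of 0.41, adjusted p = 0.0072), was not lost.

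Adar, which edits adenosine to inosine in double-stranded RNA, read 9.55 and 9.55 in unstimulated EA, 9.59 and 9.61 in EA with hormone, 9.02 and 9.05 in unstimulated YF, and 9.45 and 9.46 in YF with hormone. Its duplicates lay within 0.05 of each other in every group, so small differences passed: 0.51 (SE of 0.030, adjusted p = 0.0011) without hormone and 0.14 (SE of 0.030, adjusted p = 0.0465) with it. The value with hormone turned to -0.039 when all Adar probe sets were averaged, and the average over treatments went from 0.33 to 0.071. The with-hormone call was lost in 14 of 15 alternatives, leaving out any 1 array among them. Eif2ak2, the kinase PKR that halts translation, and Samhd1, which depletes nucleotides, gave average differences of -0.13 (SE of 0.050, adjusted p = 0.18) and -0.16 (SE of 0.058, adjusted p = 0.15) and did not pass, although Samhd1 passed as lower in EA without YF_GH replicate 2. A further Eif2ak2 probe set gave 0.28 (SE of 0.18, adjusted p = 0.48) on average, and another gave -0.22 (SE of 0.096, adjusted p = 0.25). The next brightest Samhd1 probe set had means of 10.18 in EA and 10.43 in EA_GH. In YF and YF_GH its means were 9.98 and 10.36, so its sign was the other one. Oasl1, Oas2, Oas3 and Rsad2 were in the low group in all arrays.

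At membranes, Bst2 and Ifitm3 were higher in EA under both treatments. Bst2, or tetherin, which ties budding virus to the cell surface, read 9.30 and 9.34 in unstimulated EA, 9.21 and 8.79 in EA with hormone, 6.15 and 5.99 in unstimulated YF, and 7.35 and 6.60 in YF with hormone. The EA arrays clustered near 9 and the YF arrays spread from 5.99 to 7.35. The difference was 3.25 (SE of 0.27, adjusted p = 0.0030) without hormone and 2.03 (SE of 0.27, adjusted p = 0.012) with it. The second call was lost without EA_GH replicate 1.

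Ifitm3, which blocks virus entry from endosomes, read 14.40 and 14.40 in unstimulated EA, 14.37 and 14.38 in EA with hormone, 13.82 and 13.72 in unstimulated YF, and 13.94 and 13.98 in YF with hormone. It was among the brightest members, and its tight duplicates separated the mutants by 0.63 (SE of 0.044, adjusted p = 0.0018) and 0.42 (SE of 0.044, adjusted p = 0.0058). Gbp2, a GTPase that attacks pathogen vacuoles, read 8.76 and 8.34 in unstimulated EA, 9.27 and 9.91 in EA with hormone, 7.66 and 7.90 in unstimulated YF, and 7.62 and 8.16 in YF with hormone. EA exceeded YF on all arrays, and the difference passed with hormone, at 1.70 (SE of 0.30, adjusted p = 0.027), but not without it, at 0.76 (SE of 0.30, adjusted p = 0.23). The call under hormone was lost without EA_GH replicate 2, without YF_GH replicate 1 and without either unstimulated YF array. A further Gbp2 probe set gave an average of 1.32 (SE of 0.21, adjusted p = 0.013), close to the 1.23 (SE of 0.21, adjusted p = 0.017) of the brightest, whose average call was lost without EA replicate 1 or YF replicate 1. Gbp3 gave 1.01 (SE of 0.36, adjusted p = 0.15), and Mx1 and Mx2 were in the low group.

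Among the ubiquitin-like and PARP genes, 4 of 5 passed as higher in EA on average, where 12.3% of all genes did. Usp18, which also blocks the type I interferon receptor, read 7.60 and 6.77 in unstimulated EA, 5.88 and 6.14 in EA with hormone, 2.65 and 2.91 in unstimulated YF, and 2.71 and 3.65 in YF with hormone. Every YF array lay in the low group and every EA array above it, and the difference was 4.41 (SE of 0.41, adjusted p = 0.0039) without hormone and 2.83 (SE of 0.41, adjusted p = 0.015) with it. The YF side is below 4, so the size is uncertain, and the call with hormone was lost without either EA_GH array.

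Parp14, an ADP-ribosyltransferase, read 7.97 and 8.16 in unstimulated EA, 8.65 and 8.81 in EA with hormone, 5.70 and 5.87 in unstimulated YF, and 6.86 and 6.87 in YF with hormone. The mutants did not overlap and duplicates lay close together, and the difference was 2.28 (SE of 0.10, adjusted p = 0.00042) without hormone and 1.87 (SE of 0.10, adjusted p = 0.00079) with it. Its average, 2.08 (SE of 0.069, adjusted p = 9.6e-05), had the lowest adjusted p among the members, and was 1.04 on the mean of its probe sets.

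Dtx3l, a ubiquitin ligase, read 12.16 and 12.11 in unstimulated EA, 12.18 and 12.42 in EA with hormone, 10.97 and 11.17 in unstimulated YF, and 11.14 and 11.25 in YF with hormone. EA lay above YF on every array by 1.06 (SE of 0.11, adjusted p = 0.0050) and 1.11 (SE of 0.11, adjusted p = 0.0047), and a further probe set gave 1.49 (SE of 0.13, adjusted p = 0.0035) and 1.22 (SE of 0.13, adjusted p = 0.0065). Parp9, which binds DTX3L in a complex, read 9.40 and 9.14 in unstimulated EA, 9.69 and 9.56 in EA with hormone, 7.40 and 8.37 in unstimulated YF, and 8.59 and 8.81 in YF with hormone. Its unstimulated YF duplicates lay far apart, and the difference passed only as the average, 1.15 (SE of 0.23, adjusted p = 0.025), which was lost without any 1 array except the unstimulated YF arrays. Parp14, Dtx3l and Parp9 lie next to one another on chromosome 16. Trim25, a ligase that activates RIG-I, gave 0.067 (SE of 0.12, adjusted p = 0.78) and did not pass.

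In antigen processing, 4 of 6 members passed as higher in EA on average, where 12.3% of all genes did, and 3 of these calls, all but that of Psmb9, were lost as single arrays were left out. Psmb9, an immunoproteasome subunit, read 5.41 and 5.12 in unstimulated EA, 4.43 and 4.70 in EA with hormone, 3.91 and 3.87 in unstimulated YF, and 3.98 and 3.91 in YF with hormone. All EA arrays were above all YF arrays, which sat just under 4, with 1.38 (SE of 0.12, adjusted p = 0.0037) without hormone and 0.62 (SE of 0.12, adjusted p = 0.040) with it. The second call was lost in 9 of 15 alternatives, leaving out any 1 array except the unstimulated EA arrays among them. Psmb10, another such subunit, read 10.12 and 10.39 in unstimulated EA, 10.85 and 10.63 in EA with hormone, 9.49 and 9.48 in unstimulated YF, and 10.33 and 9.92 in YF with hormone. The unstimulated groups were apart by 0.77 (SE of 0.17, adjusted p = 0.0495) and the stimulated groups by 0.61 (SE of 0.17, adjusted p = 0.095), and only the former passed, by a narrow margin that 10 of 15 alternatives removed, each fit without an EA, EA_GH or YF array among them. Its average, 0.69 (SE of 0.12, adjusted p = 0.016), was lost without EA_GH replicate 1 or either unstimulated YF array.

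Psmb8, the third immunoproteasome subunit, read 3.76 and 3.81 in unstimulated EA, 4.17 and 3.02 in EA with hormone, 2.40 and 2.31 in unstimulated YF, and 2.53 and 2.39 in YF with hormone. EA arrays were higher although most of them lay in the low group, and only the average passed, at 1.28 (SE of 0.25, adjusted p = 0.026), or 0.61 on the mean of its probe sets, and it was lost without any 1 array except the EA_GH arrays. Tapbp, which bridges peptide transporter and MHC class I, read 13.96 and 14.01 in unstimulated EA, 14.04 and 13.99 in EA with hormone, 13.78 and 13.78 in unstimulated YF, and 13.98 and 14.00 in YF with hormone. The unstimulated EA arrays exceeded the unstimulated YF arrays by 0.20 (SE of 0.038, adjusted p = 0.031), but the stimulated groups overlapped, and its average of 0.12 (SE of 0.027, adjusted p = 0.044) was lost in 13 of 14 alternatives, leaving out any 1 array except EA_GH replicate 2 among them. The average was 0.069 on the mean of its probe sets. The unstimulated call was lost without any 1 array except the EA_GH arrays.

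The peptide transporter genes did not pass. Tap1 gave an average of 0.67 (SE of 0.21, adjusted p = 0.10), with an interval of 0.15 to 1.19. Tap2 read 2.21 and 3.63 in unstimulated EA, 3.46 and 2.82 in EA with hormone, 1.88 and 1.85 in unstimulated YF, and 3.64 and 2.12 in YF with hormone, so duplicates were far apart in each group but unstimulated YF, and its difference was 1.06 (SE of 0.67, adjusted p = 0.54) without hormone. Psmb9, Tap1, Psmb8 and Tap2 stand side by side on chromosome 17.

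The remaining members were also higher in EA where they passed. Xaf1, an activator of cell death, read 10.47 and 10.14 in unstimulated EA, 10.28 and 10.01 in EA with hormone, 7.98 and 7.83 in unstimulated YF, and 7.66 and 8.18 in YF with hormone. The gap between mutants was wide under both treatments, 2.40 (SE of 0.21, adjusted p = 0.0037) and 2.23 (SE of 0.21, adjusted p = 0.0047), and both calls held under every alternative. A second Xaf1 probe set gave 3.07 (SE of 0.23, adjusted p = 0.0021) and 1.74 (SE of 0.23, adjusted p = 0.011), with its YF side in the low group.

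Rtp4, a chaperone of membrane receptors, read 8.59 and 7.98 in unstimulated EA, 8.11 and 7.98 in EA with hormone, 6.79 and 6.64 in unstimulated YF, and 6.70 and 7.37 in YF with hormone. EA arrays all lay above YF arrays, and the difference was 1.57 (SE of 0.29, adjusted p = 0.028) without hormone and 1.01 (SE of 0.29, adjusted p = 0.10) with it. The average, 1.29 (SE of 0.20, adjusted p = 0.012), was 0.67 on the mean of its probe sets, and its call was lost without EA_GH replicate 1, and the unstimulated one without EA replicate 1, either EA_GH array or either unstimulated YF array. Ifi35 was bright in all groups and its average of 0.30 (SE of 0.10, adjusted p = 0.13) did not pass.

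Of the 43 members, 20 passed in no comparison. The 10 above the low group were Ddx58, Eif2ak2, Gbp3, Ifi35, Ifih1, Irf2, Irf3, Samhd1, Tap1 and Trim25. The other 10 had their mean in the low group: Irf7, Irf8, Mx1, Mx2, Oas2, Oas3, Oasl1, Rsad2, Tap2 and Zbp1, at 1.85 to 3.64 over all their arrays. Several of these are among the genes that type I interferon raises most in many cells. For a value in that group, whether the RNA is missing or the probe set does not report it was not tested.

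Few genes passed the test for a change with growth hormone, among the members or among all genes. In EA cells, 0 of 43 members passed in either direction with limma, as in all 15 alternatives, where 0.121% of all genes passed as higher and 0.077% as lower. At an unadjusted p below 0.05, 4 members were above and 5 below 0, where 6.91% of all genes reached it in either direction, and the lowest adjusted p was 0.19, for Parp14. In YF cells, 2 of 43 rose, Parp14 and Adar, where 0.132% of all genes passed as higher, and 0 fell, where 0.066% passed as lower. At an unadjusted p below 0.05, 11 members were above and 1 below 0, where 14.1% of all genes reached it in either direction. The EA and YF mutant comparisons above use the same arrays as these hormone comparisons.

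Parp14 was higher with hormone in both mutants by position of the arrays, with values given above. In EA this position was shared by 13 of 43 members and 3350 of 18193 genes, in YF by 16 and 3571. Its change was 1.08 (SE of 0.10, adjusted p = 0.0479) in YF and 0.66 (SE of 0.10, adjusted p = 0.19) in EA, and averaged over mutants it was 0.87 (SE of 0.069, adjusted p = 0.029). Adar rose by 0.42 (SE of 0.030, adjusted p = 0.029) in YF, and its change in EA was 0.053 (SE of 0.030, adjusted p = 0.87). On the mean of a gene's probe sets, the YF change was 0.53 for Parp14 and 0.24 for Adar. Both YF calls were each lost in 14 of 15 alternatives, with adjusted p of 0.0366 to 0.24 for Parp14 and 0.0397 to 0.325 for Adar. Averaged over mutants, these 2 were again the only members to pass, where 0.181% of all genes passed as higher, and 0 passed as lower, where 0.137% did. The Adar average, 0.23 (SE of 0.021, adjusted p = 0.042), was lost in all 14 alternatives, and the Parp14 average in 8 of 14. Leaving out any 1 array ended the YF call of Parp14 and, with YF_GH replicate 2 as the exception, that of Adar and the Parp14 average.

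Irf1, whose array values stand above, had the greatest value in YF cells. All 4 arrays with hormone were above all 4 without, and the change was 1.45 (SE of 0.16, adjusted p = 0.076) in YF, 0.61 (SE of 0.16, adjusted p = 0.55) in EA and 1.03 (SE of 0.12, adjusted p = 0.073) on average, none of which passed. In YF it passed in 3 of 15 alternatives. The interval in YF, 1.04 to 1.86, lay above 0, as did that in EA, 0.20 to 1.03. Its promoter stretch printed above holds the GAS match, and any part of that site in the change was not tested.

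The other members with wide values did not pass. In EA, Usp18 gave -1.17 (SE of 0.41, adjusted p = 0.76), Gbp2 1.04 (SE of 0.30, adjusted p = 0.60) and Oasl2 0.85 (SE of 0.58, adjusted p = 0.87). The Oasl2 value was 0.011 without EA replicate 2 and 1.68 without EA replicate 1, and the Usp18 value was -0.76 without EA replicate 1. The EA arrays with hormone did not overlap those without for Usp18 and Gbp2. In all, 13 of 43 members lay wholly above and 12 wholly below in this way, as did 3350 and 2608 of 18193 genes. In YF the brightest Gbp2 probe set gave 0.11 (SE of 0.30, adjusted p = 0.81). A further Gbp2 probe set gave 1.18 (SE of 0.30, adjusted p = 0.51) in EA. That probe set also rose in YF, by 1.03 (SE of 0.30, adjusted p = 0.33), and did not pass. In YF, Tap2 gave 1.01 (SE of 0.67, adjusted p = 0.55) from the low group, but 0.25 without YF_GH replicate 1 and 1.77 without YF_GH replicate 2. Bst2 gave 0.91 (SE of 0.27, adjusted p = 0.34) in YF. The median change over members was 0.0070 in EA and 0.12 in YF, against 0.021 and -0.038 over all genes. Averaged over mutants it was 0.044, against -0.0054. Psmb9, whose EA arrays were lower with hormone, gave -0.70 (SE of 0.12, adjusted p = 0.28) in EA.

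**Figure D4:**
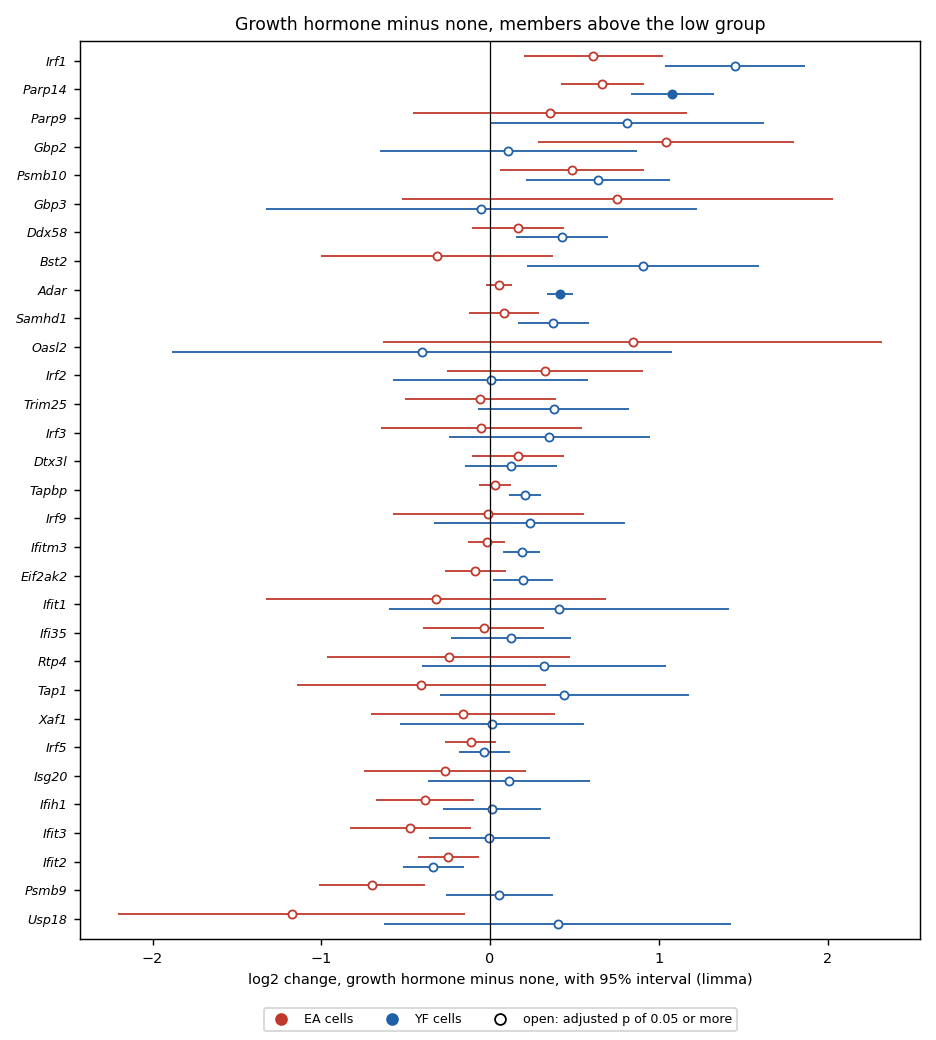
Change with growth hormone (hormone minus none, log2, x axis) in EA and YF cells for the members above the low group (y axis), with limma 95% intervals. Only Parp14 and Adar in YF cells are filled, which marks an adjusted p below 0.05.

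Whether the mutants differed in their response was tested directly with limma. Of 43 members 0 passed, as in all 14 alternatives, where 0.011% of all genes passed in each direction, and the lowest adjusted p was 0.15, for Adar. At an unadjusted p below 0.05, 0 members lay above 0 and 9 below, where 11.0% of all genes reached it in either direction. Usp18 had the most negative value, -1.57 (SE of 0.57, adjusted p = 0.45), and Oasl2 the most positive, 1.25 (SE of 0.83, adjusted p = 0.45). The 95% intervals ran from -3.03 to -0.12 for Usp18 and from -1.42 to -0.25 for Irf1. The median over members was -0.25, against 0.053 over all genes, and this comparison uses all 8 arrays of the ones before it.

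The genes upstream of the members give the setting. The interferon genes themselves gave no level above the low group: 6 of 10 listed ligand genes were measured, all 6 within it, and 0 passed in any comparison. Of 11 receptor and signalling genes 10 were measured, and 3 passed as higher and 2 as lower in EA on average, where 12.3% and 10.5% of all genes did. The kinases Tyk2 and Jak2 gave 0.41 (SE of 0.070, adjusted p = 0.016) and 0.23 (SE of 0.046, adjusted p = 0.027), and Socs3, a feedback inhibitor, gave 0.96 (SE of 0.13, adjusted p = 0.0066). The kinase Jak1 and the receptor chain Ifngr1 gave -0.86 (SE of 0.068, adjusted p = 0.0013) and -0.66 (SE of 0.11, adjusted p = 0.015). Stat2 missed the threshold at 0.34 (SE of 0.10, adjusted p = 0.079). Of 11 genes for the induction of interferon 6 were measured and 3 passed as higher, namely Ikbke, Tlr3 and Tbk1, at 0.93, 0.81 and 0.21, and 0 as lower, against the same shares.

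A further list of 50 interferon-stimulated genes outside the 46 was counted beside them. Of 47 measured, 20 passed as higher and 2 as lower in EA on average, where 12.3% and 10.5% of all genes did. Their median was 0.36, against 0.023 over all genes. The ubiquitin-like activating enzyme Uba7, which charges ISG15, gave 3.70 (SE of 0.31, adjusted p = 0.0017). The chemokine Ccl5, the DNA sensor family gene Ifi204 and the mitochondrial protein gene Ifi27l2a gave 3.63, 3.31 and 3.29. Lgals9, a galectin, went the other way, at -3.94 (SE of 0.16, adjusted p = 0.00019), as did the class I gene H2-D1, at -0.43. The YF side of Ifi204 and the EA side of Lgals9 lay in the low group. For the change with growth hormone, 1 of the 47 passed as higher in each mutant, the chemokine Cxcl10, and 0 as lower. Of all genes, 0.121% passed as higher in EA and 0.132% in YF, and 0.077% and 0.066% as lower. Cxcl10 started from the low group.

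Markers of cell type also differed between the mutants. All 12 fibroblast markers were measured. Taken over all 8 arrays, 11 had a mean above the low group, but in EA cells both Dcn and Lum lay within it. The collagen genes Col1a2 and Col3a1 and the vimentin gene Vim had means above 14 in every group. On average 1 of the 12, Postn, passed as higher in EA, where 12.3% of all genes did. Another 6 passed as lower, Col1a1, Fn1, Thy1, Dcn, Lum and S100a4, where 10.5% of all genes did. Thy1 gave -4.96 and Dcn gave -4.45. The summed log2 level of the list was 139.1 to 139.2 in EA and 137.7 to 138.9 in EA_GH. It was 148.2 to 149.1 in YF and 149.2 to 150.1 in YF_GH. Of 10 leukocyte markers measured 8 were in the low group, with the defining marker Ptprc among them. The macrophage-associated Cd68 alone passed, at 3.15 (SE of 0.15, adjusted p = 0.00026), and the summed level was 39.3 to 40.4 in EA, 39.4 to 39.9 in EA_GH, 36.0 to 36.4 in YF and 36.8 to 37.8 in YF_GH. Endothelial markers had 4 of 5 and epithelial markers 5 of 5 in the low group, with summed levels of 16.6 to 17.2 and 11.9 to 12.0 on EA arrays and 18.0 to 18.8 and 11.4 to 11.6 on YF arrays. On average the endothelial Tek passed as lower in EA, at -1.58, and the epithelial Krt18 as higher, at 0.39. No other leukocyte, endothelial or epithelial marker passed on average, against the same shares of all genes. The part of these differences in the members' differences was not tested.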

How the data were processed

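Biotin-labelled RNA from TRIzol extracts was hybridised, per the labels' protocols. The authors deposited log2 expression values, 1 column per array; GCOS and RMA are named, without versions, per the submitters' processing notes, with settings not stated there. No further normalization was applied. Array number limits the precision, and no detection calls were used.

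Differences were fitted with limma (version 3.58.1, R 4.3.3; lmFit and eBayes) as 4 group means over all 8 arrays, with 4 residual and 1.26 prior degrees of freedom. All tests were two-sided, and 7 contrasts were made. P-values were adjusted by Benjamini-Hochberg over 45037 probe sets. Array values are given for members that passed in any contrast and for the 3 with the largest changes in each of 4 contrasts, 24 genes in all. The code was tested on simulated data. The members, lists and rules were chosen with earlier results of these data known. Member probe sets (77) were matched by gene ID to RefSeq GRCm38.p6, which changed 0 symbols. Alternatives covered normalization, filter, variance model, probe set choice, replicate block and leaving out each array.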

Additional observations from a re-analysis of the deposited data

How the results depend on the processing

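Of 60 called member values, 32 kept their direction and call under every alternative; only Adar with hormone, on the mean of its probe sets, reversed (-0.039), and the cause was not tested. As each array was left out, the number of members passing ran from 16 to 23 for the average mutant difference, 12 to 17 without hormone, 9 to 15 with it, 0 to 2 for hormone in YF, 0 to 1 for the average hormone change, and 0 to 0 for hormone in EA and for the difference in response. The 2 hormone calls in YF became 0 with the contrast's own arrays, the mean of probe sets, median centring and quantile normalization, and neither passed with the trend and robust options, where Irf1 was the 1 member to pass. The 2 average hormone calls became 1, Parp14, with the mean of probe sets and with median centring, and 0 with quantile normalization.

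Among probe sets above the median level the members' medians were 0.80 (mutant, no hormone), 0.66 (mutant, hormone), 0.70 (mutant average), -0.053 (hormone in EA), 0.21 (hormone in YF), 0.11 (hormone average) and -0.30 (difference in response). Median centring gave 0.65, 0.30, -0.031 and -0.30 for mutant without and with hormone, hormone in EA and the difference in response. The mean of probe sets gave 0.61 (no hormone), 0.52 (mutant average), 0.10 (hormone in YF) and -0.12 (difference in response), and quantile normalization gave -0.21 for the difference in response. As each array was left out, the medians ran from 0.58 to 0.68, 0.21 to 0.49 and 0.52 to 0.64 for the mutant differences without hormone, with it and on average, -0.017 to 0.050, 0.065 to 0.21 and -0.0090 to 0.10 for hormone in EA, in YF and on average, and -0.30 to -0.18 for the difference in response.

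By replicate number, the correlations of replicate differences ran from -0.30 to 0.37 over the pairs of groups. All pairs with unstimulated EA were negative (-0.21, -0.062 and -0.30), and the other pairs were not (0.0021, 0.12 and 0.37). Whether the arrays share a batch that the EA numbers run against was not tested. With the replicate block, 0 members passed for hormone in YF and 1, Parp14, for the average hormone change. A block with the EA numbers crossed, chosen after seeing the data, gave 1, Adar, and 0. For the mutant differences the crossed block gave 21 members without hormone, 15 with hormone and 24 on average, all higher in EA. The block as numbered gave 16, 12 and 23. Low signal limits what can be said of the 12 members in the low group.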
